A study of Caenorhabditis elegans with 2 samples.

Results

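Noncoding peaks of SDC-2 ChIP-seq (chromatin immunoprecipitation followed by sequencing) along chromosome V of Caenorhabditis elegans are described here. A peak is noncoding where its summit lies outside every coding segment of the protein-coding genes. The members were chosen from their presence in the peak list called on both replicates pooled: of 26640 peaks in that list, 4266 lay on V, and 3034 of these had a noncoding summit. Of the 3034, 131 were also in the shorter list that the authors derived by IDR, a procedure that keeps peaks whose ranks are reproducible between replicates. These are 4.32% of the members (exact 95% interval 3.62 to 5.10). The share was 5.16% of the 11693 noncoding peaks of the other 4 autosomes, just above that interval. With coding summits included it was 3.21% on V, beside 5.04% of all 26639 peaks of the nuclear chromosomes. The share on V was thus the lower in both comparisons. No test was made of this difference, and nothing more about V is read from it. Chromosome V was chosen because its peaks were the sparsest per Mb (145.0 noncoding peaks per Mb, against 148.7 to 258.8 on the other 5 nuclear chromosomes), so its low density is the reason for the choice and not a result. Per Mb of noncoding sequence V had 197.8 and IV, the lowest, 192.2.

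The study had 1 group of 2 biological replicates. Both were hermaphrodite late embryos of strain OP92, a transgenic line with a C-terminal GFP-FLAG tag on SDC-2, collected 3.25 h after synchronization by bleaching of eggs. Chromatin of whole organisms was sonicated and precipitated with an anti-GFP antibody, so each value averages over all cells of many embryos. Both replicates were called against the same control alignment. No untagged strain and no SDC-2 mutant was analysed here, so signal that depends on SDC-2 and signal that does not cannot be told apart. Peak lists hold no expression values, so the labelled stage was not checked against marker genes.

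SDC-2 acts in hermaphrodite embryos, which carry a pair of X chromosomes. It brings the dosage compensation complex to X, where the complex lowers transcription, and it represses the male-determining gene her-1, which lies on V. Chromosome V is an autosome. Its arms are known for large gene families that expanded in nematodes, above all the chemoreceptors, and its centre for conserved genes with broad roles. Genes for tRNAs and some other small RNAs are read by RNA polymerase III from promoters that lie partly inside the gene, the A box and the B box, which the factor TFIIIC binds.

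The sequences of the strongest sites of V are given first, to show which of them hold a short pattern searched for and which hold none. All are from the RefSeq genome of the build WBcel235 (ce11), plus strand, 5′ to 3′, with the 60 bases to either side of the summit. Capitals mark any match to 5 short patterns, each searched on both strands. The pattern GACGCAG and the repeat GAGAGAG led an earlier search of these peaks. The pattern GCGCAGG shares the last 5 letters of the first of these. The core of the B box was searched as GTTCGANNC or GTTCAANNC, in which N is any base. The first site is the strongest of V, downstream of the 5′ end of the chemoreceptor gene str-47, and the second is the strongest of the left arm, upstream of chpf-2, a chondroitin polymerizing factor gene.
str-47, V:7647254-7647374: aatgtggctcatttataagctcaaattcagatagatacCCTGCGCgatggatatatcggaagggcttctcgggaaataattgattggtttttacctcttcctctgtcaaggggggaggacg
chpf-2, V:3041070-3041190: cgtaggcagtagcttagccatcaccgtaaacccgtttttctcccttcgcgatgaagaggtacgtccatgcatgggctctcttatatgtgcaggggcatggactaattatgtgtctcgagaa

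The next sites are the 5 of the 12 strongest that lay beside a snoRNA gene and held a B box core within 100 bp of the summit. snoRNAs guide chemical modification of ribosomal and other RNAs. Each is named by its snoRNA gene; where the printed stretch holds the pattern as GNNTCGAAC or GNNTTGAAC, the match is on the minus strand. F55A11.10 also held GCGCAGG, and its B box core lay outside the stretch printed.
C51F7.4, V:12303572-12303692: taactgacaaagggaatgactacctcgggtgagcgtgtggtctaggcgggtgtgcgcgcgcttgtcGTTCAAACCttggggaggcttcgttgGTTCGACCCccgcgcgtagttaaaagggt
T03F7.8, V:11314155-11314275: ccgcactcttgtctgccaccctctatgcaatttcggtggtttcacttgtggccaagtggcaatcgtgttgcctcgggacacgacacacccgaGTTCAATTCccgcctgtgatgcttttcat
Y43F8C.22, V:19643166-19643286: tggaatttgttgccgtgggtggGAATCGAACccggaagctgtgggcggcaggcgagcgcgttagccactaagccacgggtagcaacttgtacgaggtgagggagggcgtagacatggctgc
Y75B12B.12, V:15191078-15191198: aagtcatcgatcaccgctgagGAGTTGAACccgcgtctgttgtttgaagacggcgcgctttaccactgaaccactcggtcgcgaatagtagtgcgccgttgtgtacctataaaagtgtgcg
F55A11.10, V:11782860-11782980: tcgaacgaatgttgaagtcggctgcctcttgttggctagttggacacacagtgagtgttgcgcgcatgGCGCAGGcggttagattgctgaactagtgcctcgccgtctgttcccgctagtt

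The remaining snoRNA sites among the 12 strongest are shown because they held no B box core: T06C12.16, ZK994.7 and C27H6.5.
T06C12.16, V:15873908-15874028: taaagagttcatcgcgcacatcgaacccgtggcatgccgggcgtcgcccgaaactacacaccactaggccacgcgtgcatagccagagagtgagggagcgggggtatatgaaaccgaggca
ZK994.7, V:8500510-8500630: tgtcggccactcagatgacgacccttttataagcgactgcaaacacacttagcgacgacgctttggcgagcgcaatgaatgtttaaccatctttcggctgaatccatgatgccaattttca
C27H6.5, V:9970265-9970385: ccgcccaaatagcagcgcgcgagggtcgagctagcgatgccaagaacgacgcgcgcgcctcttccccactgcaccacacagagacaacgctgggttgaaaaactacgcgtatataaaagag

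Among the 12 strongest, 2 held GAGAGAG, at ranks 8 and 10, the tRNA-Ile site F57F5.t1 upstream of gcy-33 and the snoRNA site C27H6.5 in an intron of unc-41. Both are shown in 61 bases centred on the match.
gcy-33, V:12002082-12002142: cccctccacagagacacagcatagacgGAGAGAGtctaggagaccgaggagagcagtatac
unc-41, V:9970356-9970416: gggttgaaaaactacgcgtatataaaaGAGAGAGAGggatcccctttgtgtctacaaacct

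None of the 12 held GACGCAG. The 4 strongest with GACGCAG are shown in 61 bases centred on the match, named by the nearest protein-coding 5′ end. They were picked by this order after their values were seen. CTGCGTC is the same pattern on the minus strand.
drap-1, V:9731149-9731209: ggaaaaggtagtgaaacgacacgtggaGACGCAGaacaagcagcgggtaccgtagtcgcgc
hif-1, V:20778317-20778377: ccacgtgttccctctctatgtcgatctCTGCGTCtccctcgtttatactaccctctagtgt
egl-9, V:10466717-10466777: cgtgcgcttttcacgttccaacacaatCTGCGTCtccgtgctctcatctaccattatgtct
ttb-1, V:155286-155346: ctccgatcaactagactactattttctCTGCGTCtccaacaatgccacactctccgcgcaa

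Along V the pooled list and the IDR list ran in opposite directions from arm to centre. V is 20924180 bp long and was split into 3 equal parts, the left arm, the centre and the right arm. The full set of 3034 peaks was denser in the arms, at 154.1 per Mb, than in the centre, at 126.9 per Mb, a ratio of 1.21 (95% interval 1.12 to 1.31, exact, for the counting of peaks only). The 131 IDR peaks were sparser in the arms, at 5.02 per Mb, than in the centre, at 8.75 per Mb, a ratio of 0.574 (0.401 to 0.822). The left arm held 36 IDR peaks and the right arm 34, against 61 in the centre. With 1 group and members taken from the same lists, no test was made of any of these ratios.

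Read as a share, the IDR list held 3.26% of the members in the arms (70 of 2149, 2.55 to 4.10) and 6.89% of those in the centre (61 of 885, 5.31 to 8.77). The IDR list is a list of the strongest: on V it held exactly the 131 members with the highest pooled signal, a value the authors' peak caller gave each peak. The median pooled signal of all members was 31.2 in the arms and 32.8 in the centre.

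The sequence itself differs between arms and centre. Noncoding bases made up 75.2% of the arms and 69.4% of the centre, and repeat-masked bases were 46.5% of the noncoding sequence in the arms and 34.7% in the centre. The arms make up 66.7% of the length of V and held 64.0% of its protein-coding genes, 3196 against 1798 in the centre. Per Mb of noncoding sequence the arms held 6.67 IDR peaks and the centre 12.6. The part of repeats in these counts was not tested.

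The ratios of the other autosomes lay on the same sides of 1, so neither direction is particular to V. Their pooled ratios of arm over centre lay between 1.18 on III and 1.29 on I, and their IDR ratios between 0.633 on III and 0.812 on II. The IDR ratio was 0.690 on I (0.494 to 0.971) and 0.770 on IV (0.532 to 1.12). The intervals of II (0.576 to 1.15) and IV include 1, so the direction for IDR peaks is not settled there. On X the IDR ratio was 1.39 (1.15 to 1.70), above 1, while its pooled ratio was 1.32. The interval of V for IDR peaks does not reach that of X.

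**Figure D1:**
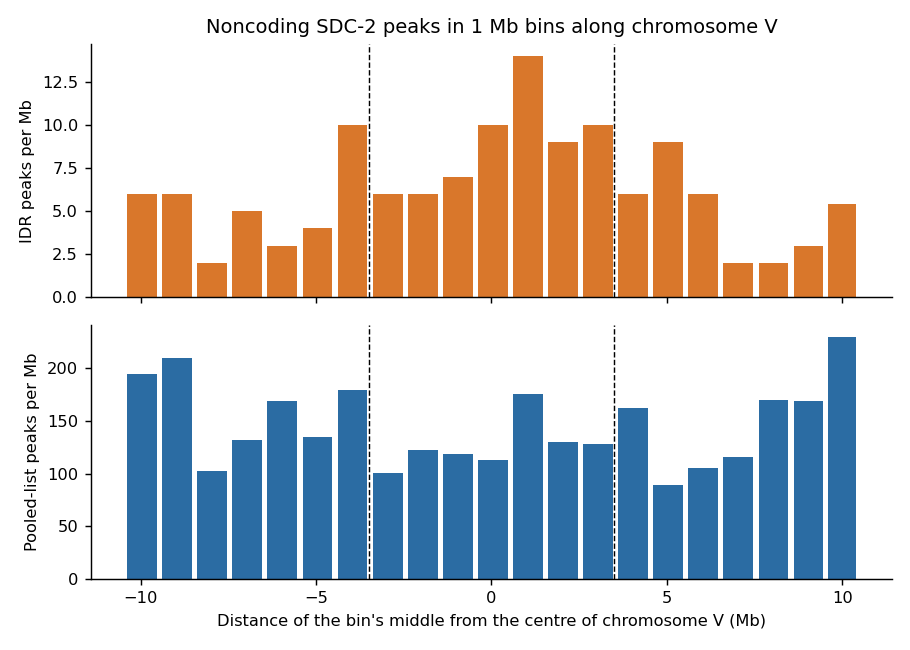
Noncoding peaks per Mb in 1 Mb bins, by the distance of the bin's middle from the centre of V in Mb (top, IDR peaks; bottom, all peaks of the pooled list; dashed lines, the boundaries between the centre and the arms). The IDR bars reach 14 in the centre and drop to 2 in both arms, while the pooled bars are highest at the ends.

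In bins of 1 Mb the peaks were uneven on a finer scale than arm and centre. The 20 full bins held 89 to 210 pooled peaks, with a median of 131, and 2 to 14 IDR peaks, with a median of 6. The bin from 11 to 12 Mb held most IDR peaks, 14 among 176 pooled peaks. The 2 bins at the left end held 195 and 210 pooled peaks but 6 IDR peaks each. The last bin, of 0.924 Mb, held 212 pooled and 5 IDR peaks. From 18 to 19 Mb there were 170 pooled peaks and 2 IDR peaks, so 1.18% of that bin's members were in the IDR list, against 10.1% (9 of 89) from 15 to 16 Mb.

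The widest stretch without an IDR summit ran for 919.8 kb in the right arm, from 16629027 to 17548790, and held 101 weaker members. The next ran for 772.4 kb in the right arm, with 133 weaker members, followed by 662.9 kb in the left arm, with 69. The median gap between neighbouring IDR summits was 114.4 kb, and 9 of 130 gaps were under 10 kb. The closest pair lay 200 bp apart at V:15002145-15002794, between fib-1, which encodes fibrillarin, the methyltransferase that works with box C/D snoRNAs, and mut-15, a gene of small RNA silencing. Both of these peaks are 450 bp wide and they overlap. Other close pairs lay 1.18 kb apart upstream of unc-70, which encodes beta-spectrin, and 2.62 kb apart upstream of cmd-1, the calmodulin gene.

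The strongest sites were far above the rest. Pooled signals of the IDR members ran from 82.7 to 630.6, a ratio of 7.63, with a median of 104.3, and 24 of 131 exceeded 150, of which 11 lay in the arms and 13 in the centre. Of the 12 strongest, 8 lay in the centre and 4 in the arms. Of these 12, 8 had a summit within 100 bp of the 5′ end of a snoRNA gene and 1 within 100 bp of that of a tRNA gene. The 3 others lay at str-47, chpf-2 and tos-1.

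At str-47 (V:7647131-7647491) replicate 1 gave 325.0, replicate 2 gave 306.8 and the pooled call 630.6. It is intergenic, 1560 bp from the 5′ end of str-47 with no small RNA gene within 1000 bp. The site upstream of chpf-2, V:3040972-3041314, had 263.1 in replicate 1, 210.8 in replicate 2 and 471.4 in the pooled call. It lay 1748 bp upstream of chpf-2 and 1051 bp from the gene of the microRNA mir-792. The site at tos-1, a gene named as a target of splicing, had 114.6 in replicate 1, 97.3 in replicate 2 and 213.0 in the pooled call, with its summit 84 bp upstream of the gene's 5′ end. In all 3 replicate 1 had the higher signal. After chpf-2, the strongest sites of the left arm were upstream of mrck-1, a kinase gene of the actomyosin cytoskeleton, with 83.7 in replicate 1, 101.7 in replicate 2 and 189.6 pooled, and of cmd-1, with 89.4, 91.2 and 179.6. Both had a noncoding RNA gene closer by. The first summit lay 357 bp from the 5′ end of mrck-1 and 7 bp from that of F31F7.6. The second lay 4805 bp from that of cmd-1 and 560 bp from that of linc-128. Pooled and replicate signals are on separate scales, since the pooled call joins the reads of both.

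Beside snoRNA genes, the strongest site was at C51F7.4, in an intron of frm-7, with 248.5 in replicate 1, 312.6 in replicate 2 and 558.6 pooled. T03F7.8, in an intron of the cuticlin-like gene cutl-18, had 258.2, 235.6 and 495.2 in the same order. T06C12.16, an intergenic snoRNA gene in the right arm near str-56, had 201.0, 225.3 and 426.0. These 3 had similar levels in both replicates. ZK994.7, in an intron of pxn-1, which encodes a peroxidasin of the extracellular matrix, had 194.7 in replicate 1, 210.0 in replicate 2 and 401.3 pooled. Y43F8C.22, in the right arm, had 158.2, 201.2 and 358.1. The weakest of the 10 IDR peaks within 100 bp of a snoRNA 5′ end was K11C4.6, with 50.4, 64.9 and 111.8. The 10 had a median pooled signal of 306.6, against 120.5 for the 14 IDR peaks within 100 bp of a tRNA 5′ end and 100.4 for the 107 other IDR peaks.

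**Figure D2:**
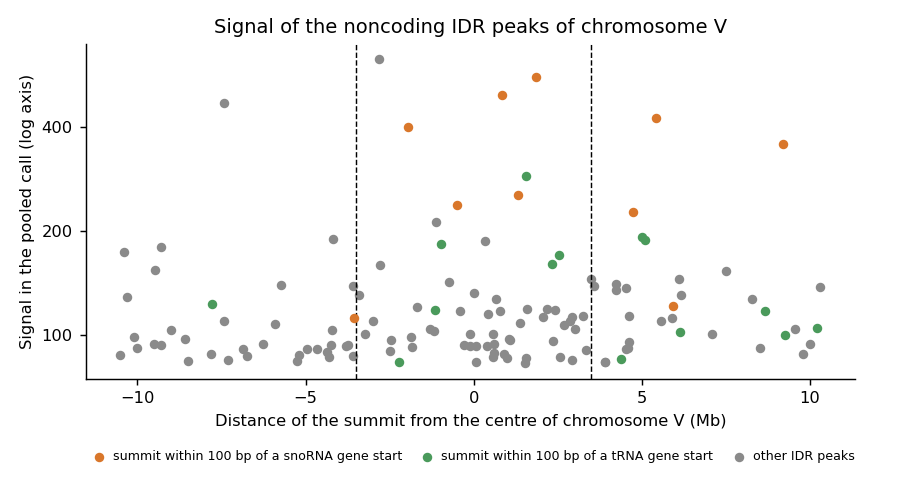
Pooled signal (log axis) of the 131 noncoding IDR peaks by the distance of the summit from the centre of V in Mb; colours give summits within 100 bp of a snoRNA or tRNA gene start and all others, and dashed lines the boundaries of the arms. Of the points above 200, 8 are snoRNA sites, 1 is a tRNA site and 3 are others, and snoRNA and tRNA sites occur in both arms and the centre.

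The count of such sites differed from arm to arm. Of the IDR peaks of the right arm, 12 of 34 had a summit within 1000 bp of a small RNA gene (35.3%, 19.7 to 53.5), in the left arm 4 of 36 (11.1%, 3.11 to 26.1) and in the centre 12 of 61 (19.7%, 10.6 to 31.8). These intervals overlap. The share near a protein-coding 5′ end was 58.8% in the right arm, 58.3% in the left arm and 62.3% in the centre.

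Summits at snoRNA genes lay mostly upstream of the 5′ end, and those at tRNA genes on both sides of it. Of the 10 snoRNA summits, 9 lay upstream of the annotated 5′ end, by 9 to 72 bp, and that of C51F7.4 lay 33 bp downstream. Of the 14 tRNA summits, 4 lay upstream of the 5′ end, the nearest by 6 bp at K06A4.t1, a tRNA-Ala gene, and 9 lay inside the tRNA gene. The strongest tRNA site, at the tRNA-Ile gene F57F5.t1 upstream of the guanylyl cyclase gene gcy-33, had 142.5 in replicate 1, 145.5 in replicate 2 and 289.9 pooled. T23F1.t2, a tRNA-Pro gene, had 91.8, 99.2 and 192.9, and F28F8.t3, a tRNA-Asp gene, had 75.3, 114.6 and 188.7. Most summits of the list are the middle of a peak of fixed width (115 of 131 IDR members and 3018 of 3034 members are 450 bp wide with the summit in the middle), which limits the precision of these distances. The 12 strongest are narrower, 114 to 361 bp.

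Over all protein-coding genes of V, 2.20% had an IDR peak within 1000 bp of the 5′ end and 25.2% any member. Of the 55 snoRNA genes on V, 12 had an IDR peak within that distance (21.8%, 11.8 to 35.0) and 31 any member (56.4%, 42.3 to 69.7). Of the 78 tRNA genes, 18 had an IDR peak (23.1%, 14.3 to 34.0) and 53 any member (67.9%, 56.4 to 78.1). Of 28 microRNA genes, 2 had an IDR peak (7.14%, 0.877 to 23.5), an interval that includes the share over protein-coding genes. These were mir-87, with a pooled signal of 119.1, and mir-241, a let-7 family member in developmental timing. At mir-241 the signal was 53.7 in replicate 1, 24.6 in replicate 2 and 83.3 pooled. None of the 40 snRNA genes had an IDR peak, which allows up to 8.81%, and none of the 15 rRNA genes, which allows up to 21.8%. Neither can be told apart from the 2.20% of protein-coding genes. Small RNA genes in clusters share peaks, so genes with a peak are not independent of each other. Many are near-identical copies that can share reads, so the copy a peak belongs to is uncertain.

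The B box core followed the small RNA genes. It was within 100 bp of the summit in 21 of 131 IDR members (interval 10.2 to 23.5%), against 3.44% of 262 windows 2000 bp to either side of the same summits and 4.49% of all windows of that length on V. It was present in 19 of the 28 IDR members within 1000 bp of a small RNA gene and in 2 of the 103 others. All 14 members beside tRNA genes held it, as tRNA genes do by their structure, and 5 of the 10 beside snoRNA genes. Below the IDR list the share was 4.35 to 5.15% in every range of ranks.

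GACGCAG and the GA repeat were also more frequent at summits than beside them. GACGCAG was within 100 bp of the summit in 14 of 131 IDR members (10.7%, 5.97 to 17.3), against 1.91% of the flanking windows and 1.68% of all windows of V. It was present in 13 of 103 IDR members away from small RNA genes and in 1 of 28 near them. GAGAGAG was present in 29 of 131 (22.1%, 15.4 to 30.2), against 2.67% of the flanks and 2.50% of all windows. Both were present in 5 members. GCGCAGG was present in 3 members (2.29%, 0.475 to 6.55), against 0.382% of the flanks. These were the site of str-47 and the snoRNA sites of F55A11.10 and W08G11.6, so 2 of the 3 lay beside small RNA genes. GACGCAG and GAGAGAG came from an earlier search of the same peaks, and GCGCAGG shares letters with the first of them. The excess of these patterns at summits is therefore a description and not independent support.

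The members with GACGCAG printed above stood at ranks 27 to 38 on V. At drap-1, which encodes a subunit of a general transcription repressor, the signal was 59.7 in replicate 1, 89.4 in replicate 2 and 142.0 pooled. The summit lay 109 bp upstream of the 5′ end, and that of the noncoding RNA gene F40F9.15 was closer, at 50 bp. At hif-1, the hypoxia-inducible factor, the values were 56.7, 73.2 and 137.4, with the summit 2004 bp upstream. At egl-9, the prolyl hydroxylase that marks HIF-1 for destruction, they were 61.6, 71.6 and 132.1, with the summit 1698 bp upstream. That summit was closer to the 5′ end of the noncoding RNA gene F22E12.9, at 5 bp. At ttb-1, a homologue of the general transcription factor TFIIB, the values were 61.5, 63.1 and 128.5. In all 4 replicate 2 had the higher signal. The match lay 56 to 82 bp from the summit.

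Members changed in character with signal rank. Of the IDR members 60.3% (51.4 to 68.7) had their summit at most 1000 bp from the 5′ end of a protein-coding gene, and the share was 48.2% for ranks 132 to 500 and 43.3% for ranks 2001 to 3034, beside 44.9% of the noncoding bases of V. Intergenic summits were 71.8% of IDR members and 517 of the 1034 members of the weakest range, beside 54.4% of noncoding bases. Summits within introns were 22.1% of IDR members and 41.4% of the weakest range, beside 39.3% of bases. For ranks 1001 to 2000 the shares were 44.4% near a 5′ end, 51.0% intergenic and 40.4% in introns, close to the shares of bases.

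The other measures moved the same way. Summits within 1000 bp of a small RNA gene were 21.4% of IDR members, 4.88% of ranks 132 to 500 and 2.13% of ranks 2001 to 3034, beside 1.74% of bases. GACGCAG was in 10.7% of the top range and 4.84% of the weakest, and GAGAGAG in 22.1% and 3.97%. The median GC content of the windows was 48.8% in IDR members and 37.8% in the weakest range, beside 33.8% over V, and the median share of repeat-masked bases was 13.4% and 30.8%, beside 35.8%. The part of base composition in the other shares was not tested. The share in the arms was 53.4% in IDR members and 68.4 to 73.6% in every weaker range, where the arms make up 66.7% of the length of V.

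**Figure D3:**
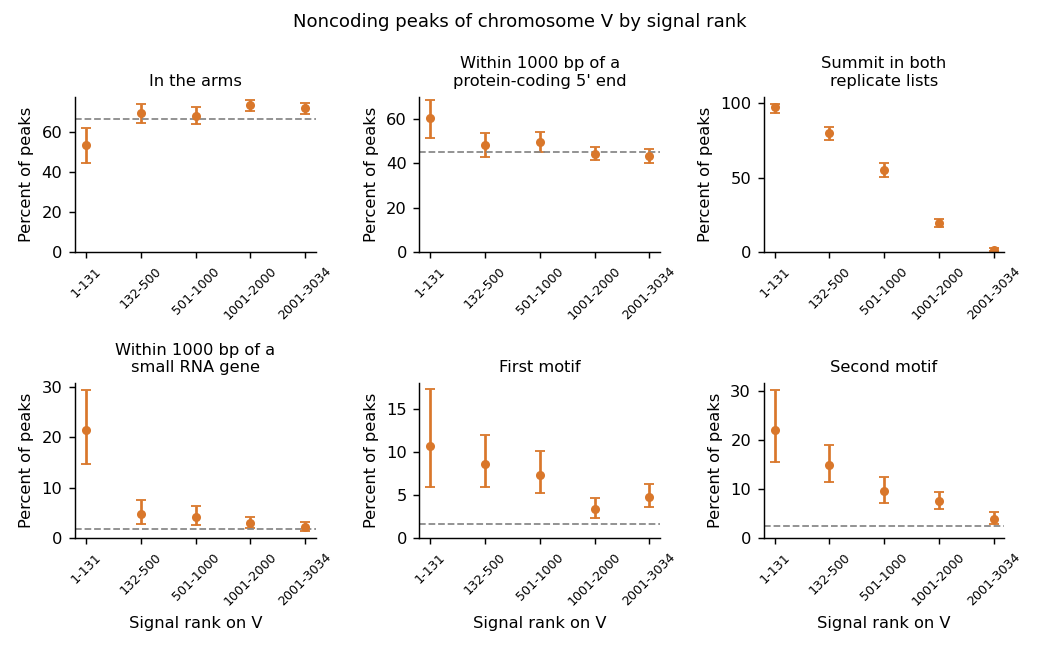
Percent of noncoding V peaks with each property, by range of signal rank on V (points, share; bars, exact 95% interval for counting; dashed line, the share of V's length for the arms, of its noncoding bases for the gene distances and of all its windows for the motifs). The first motif is GACGCAG and the second GAGAGAG; the leftmost point of each panel, the 131 IDR members, is the lowest for the arms and the highest in the other panels.

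Among the gene families known for the arms, the chemoreceptors had a smaller share of genes with an IDR peak than the genes of V as a whole, of which 2.20% had one (110 of 4994, 1.81 to 2.65). V holds 890 chemoreceptor genes, serpentine receptors with which the worm smells and tastes, and 682 of them lie in the arms. Of the 890, 4 had an IDR peak within 1000 bp of the 5′ end (0.449%, 0.123 to 1.15) and 99 any member (11.1%, 9.13 to 13.4). Over all protein-coding genes of V the share with any member was 25.2% (24.0 to 26.4). Of 167 nuclear hormone receptor genes 2 had an IDR peak and 40 any member (24.0%, 17.7 to 31.2). Of 87 F-box genes, whose products select proteins for destruction, the counts were 2 and 18 (20.7%, 12.7 to 30.7). Both shares with any member are near that over all genes, which their intervals include. The shares with an IDR peak were 1.20% for the receptors (0.145 to 4.26) and 2.30% for the F-box genes (0.280 to 8.06), and both intervals include the share over all genes. None of the 86 C-type lectin genes, 42 UDP-glucuronosyl transferase genes, 41 cytochrome P450 genes and 9 glutathione S-transferase genes had an IDR peak. For the C-type lectins that count allows up to 4.20%, and for the P450 genes up to 8.60%, so neither can be told apart from the share over all genes. Their strongest members lay below the IDR list: 59.0 pooled at cyp-33C2 (20.1 in replicate 1 and 38.9 in replicate 2), 55.7 near ugt-29 (16.7 and 38.7) and 51.4 at clec-42 (22.7 and 22.4).

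These 7 families and the 3 MATH and BATH genes were set together as families known for the arms. On V 1023 of their 1325 genes lay in the arms (77.2%), against 64.0% of all protein-coding genes, but only 19 of the 42 UDP-glucuronosyl transferase genes and 1 of the 3 MATH and BATH genes did. Together the 8 had an IDR peak at 9 of 1325 genes (0.679%, 0.311 to 1.29), against 101 of 3669 other protein-coding genes of V (2.75%, 2.25 to 3.33). Any member was near 182 of the family genes (13.7%, 11.9 to 15.7), against 1075 of the others (29.3%, 27.8 to 30.8). The gap was present within the arms, where 0.684% of family genes and 2.25% of others had an IDR peak, and 164 of 1023 family genes and 674 of 2173 others (31.0%) any member. In the centre the shares were 0.662% and 3.48% for IDR peaks, and 5.96% and 26.8% for any member. Family genes lie in clusters and neighbours share peaks, so these counts are not independent, and the intervals cover counting only. Recent copies within a family can share reads, so the gene a peak is assigned to is uncertain there.

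**Figure D4:**
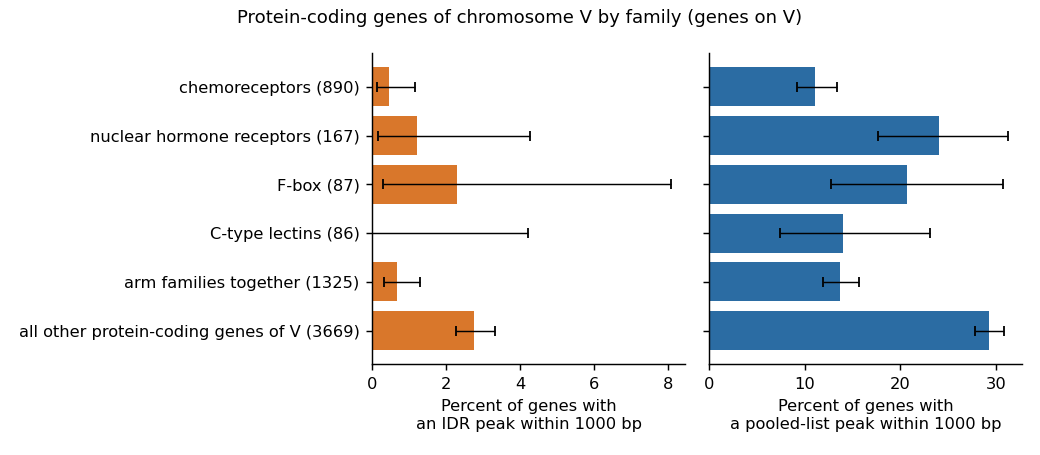
Percent of protein-coding genes of V with an IDR peak (left) or any pooled-list peak (right) within 1000 bp of the 5′ end, for 4 families, for all 8 arm families together and for all other genes; the number of genes on V is in brackets and bars are exact 95% intervals for counting. The arm families together, most of whose genes are chemoreceptors, reach 0.679% and 13.7%, against 2.75% and 29.3% for the other genes.

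Of the 131 IDR peaks 6.87% (3.19 to 12.6) were near a gene of these families, beside 11.1% of the noncoding bases of V. The 9 family genes with an IDR peak within 1000 bp had pooled signals of 84.0 to 130.2, in a list that reaches 630.6. That range depends on the distance limit. Farther off, chemoreceptor genes were the nearest protein-coding genes of stronger IDR peaks: str-47 (630.6, 1560 bp), str-56 (426.0, 1395 bp), srt-52 (173.6, 2568 bp) and srh-200 (159.9, 3735 bp). The peak near srd-21, at V:16628802-16629251, had 60.6 in replicate 1, 71.7 in replicate 2 and 130.2 pooled, and it lay closer to another gene, W06G6.2 (264 bp against 873 bp). The peak near math-33 had 71.6, 55.5 and 126.8 and lay closer to erfa-3, which encodes a translation release factor subunit. The one near srh-89 had 60.6, 17.8 and 109.7 and lay closer to F25E5.1. The same held for nhr-142 (501 bp, against 176 bp for F44E7.9), so 4 of the 9 assignments were to genes with a closer protein-coding neighbour. At nhr-47 the summit lay 23 bp upstream, with 41.2 in replicate 1, 50.9 in replicate 2 and 91.0 pooled, and the same peak was within 1000 bp of the co-chaperone gene dnj-19. The peak near srh-269 (42.6, 59.7 and 102.1) was the one at the tRNA-Gln gene T03E6.t1. The others were fbxa-176 (100.4 pooled), srh-34 (91.8), nhr-142 (90.8) and fbxa-201 (84.0).

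The other families are small, and their shares are wide. Of 13 heat shock and DnaJ genes, which encode chaperones, 9 had any member (69.2%, 38.6 to 90.9, beside 25.2% of all genes). An IDR peak was near 2 of them (15.4%, 1.92 to 45.4, beside 2.20% of all genes). These were dnj-19 and hsp-90, the cytosolic HSP90 gene (65.0 in replicate 1, 65.6 in replicate 2 and 135.0 pooled). The peak near hsp-90 lay closer to another gene, C47E8.4 (304 bp against 371 bp). Of 27 histone genes 9 had any member and none an IDR peak, of 8 cytosolic ribosomal protein genes 5 and none, of 32 cuticle collagen genes 3 and none, and of 42 genes of fungus-induced and neuropeptide-like peptides 8 and none. These zeros allow up to 12.8% of the histone genes, 36.9% of the ribosomal protein genes, 10.9% of the collagen genes and 8.41% of the peptide genes. The strongest at a histone gene was at his-37, with 31.5, 47.0 and 77.5, and that at a ribosomal protein gene was at rps-30, with 27.4, 36.4 and 59.7. The rps-30 summit lay 148 bp upstream, and 10 bp from the 5′ end of the noncoding RNA gene C26F1.14. Of the 7 PALS genes 1 had any member (14.3%, 0.361 to 57.9) and none an IDR peak.

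A replicate summit within 100 bp was in both lists for 128 of 131 IDR members (97.7%, 93.5 to 99.5). The IDR list was built on agreement between these lists, so this share is a description. Set directly against each other, 10 of the 12 strongest noncoding V peaks of replicate 1 had a match among the 12 strongest of replicate 2 (83.3%, 51.6 to 97.9), 20 of the 25 strongest (80.0%, 59.3 to 93.2) and 36 of the 50 strongest (72.0%, 57.5 to 83.8). The members are ranked by a pooled signal that joins both replicates, so those at the top are high in both by construction. All 12 and all 25 of the strongest, and 48 of the strongest 50, were among the strongest 131 noncoding V peaks of both replicates. Over all 131 it was 78 (59.5%, 50.6 to 68.0), with 41 of 70 in the arms (58.6%) and 37 of 61 in the centre (60.7%). Presence in both lists fell with rank, to 79.7% for ranks 132 to 500, 55.2% for ranks 501 to 1000, 19.5% for ranks 1001 to 2000 and 1.64% for ranks 2001 to 3034.

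Signals of the 128 members in both lists had a median ratio of replicate 1 over replicate 2 of 0.939, with a range of 0.299 to 3.40, and 83 of 128 were higher in replicate 2. Across these peaks, which come from the same 2 libraries and share the control, log2 signals had a Pearson correlation of 0.744 and a Spearman correlation of 0.518. For the 782 weaker members in both lists these were 0.320 and 0.316. Of the 128, 9 differed more than 2-fold. The farthest apart were the peak at F25E5.1, with 60.6 in replicate 1 and 17.8 in replicate 2, the one 5265 bp upstream of somi-1, with 18.6 and 62.2, and the one near T28H10.2, with 33.7 and 108.0. The 3 IDR members without a match in both lists were at fib-1 (nearest replicate 1 summit 209 bp away), F53F8.4 (48.9 in replicate 1, nearest replicate 2 summit 158 bp away) and Y97E10AR.1 (71.0 in replicate 2, nearest replicate 1 summit 113 bp away). The replicate 1 summit nearest to the fib-1 peak is the one matched to the neighbouring mut-15 peak.

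**Figure D5:**
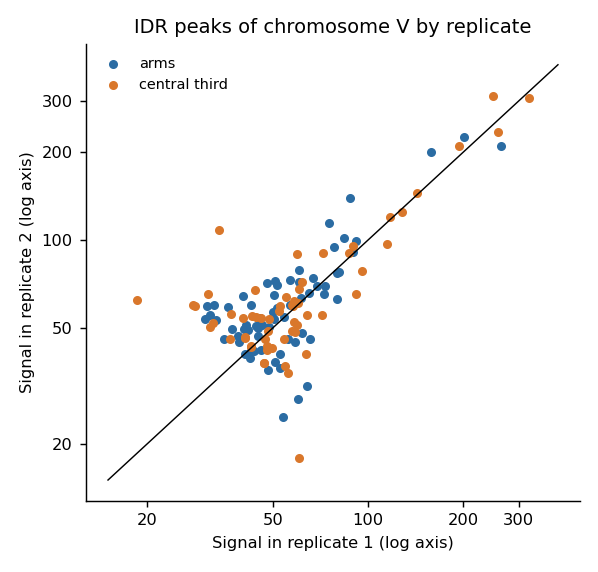
Signal in replicate 1 against replicate 2 (both log axes) for the 128 noncoding IDR members of V with a summit within 100 bp in both replicate lists; blue, arms; orange, centre; line, equal signal. The strongest sites lie near the line and the points below about 100 scatter around it, with a ratio from 0.299 to 3.40.

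At the edge of the IDR list the values ran on without a step. The weakest members inside were at unc-39 (83.3 pooled), ppm-1.A (83.2) and cyl-1 (82.7), and the strongest outside at ret-1 (82.3), apx-1 (82.2) and Y50D4A.6 (82.0). Replicate 1 gave 36.6 and replicate 2 gave 45.9 at cyl-1, beside 35.4 and 46.9 at ret-1, so the 2 cannot be told apart by their signals.

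The gene her-1, the textbook target of SDC-2 on V, was the nearest protein-coding gene of 3 noncoding members and of none in the IDR list. Their summits lay in introns, 26, 1756 and 1298 bp from the nearest 5′ end of an annotated her-1 transcript. For the first and second that end lies inside the gene. From the 5′ end of the gene as a whole the first lay at least 2311 bp away, the second 1999 bp and the third 1298 bp. In that order their pooled signals were 36.0, 33.1 and 32.8, just above the median of 31.6 for all members, and the strongest stood at rank 1115 on V. Each had a matching summit in only 1 of the replicate lists. The 33.1 peak held GCGCAGG within 100 bp of its summit.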

How the data were processed

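ChIP-seq peak lists of 2 biological replicates were used, 8 lists in all, 4 on ce11 and 4 on ce10. The authors called peaks on each replicate and on both pooled against 1 shared control alignment, per the deposited README texts, and those lists were the input of the IDR step. How reads were aligned, which caller was used and the threshold of the IDR step are not given in the sources used. The signal of each peak is the deposited value of the authors' caller, not a read count, so depth is unknown.

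Summits were set against Ensembl release 115 (WBcel235) and the soft-masked RefSeq genome. A summit within 100 bp matched a replicate summit, and a gene was near within 1000 bp of its 5′ end. Distances of summits to protein-coding genes are to the nearest 5′ end of any annotated transcript, which can lie inside the gene. Small RNA genes are those for tRNA, snoRNA, snRNA, miRNA and rRNA. Motifs were searched in 201 bp windows around summits, in windows 2000 bp to either side, and in end-to-end windows over V. Intervals are exact 95% Clopper-Pearson, or conditional binomial for ratios, and cover counting of peaks only. No test was made, since 1 group gives no comparison over samples. The rule for naming took the 12 strongest members, the 3 strongest of each arm and of the centre, and the 2 strongest of each gene family and small RNA class. It also took the members at the IDR edge and her-1. Not all members chosen for the families and small RNA classes are printed. The members and lists were chosen with earlier results of these data known, and the B box core after the sequences were seen. The density ratio, the matching and the motif search were tested on simulated data. Python 3.11.15, numpy 2.4.6, pandas 2.3.3, SciPy 1.17.1 and matplotlib 3.10.9 were used.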

Additional observations from a re-analysis of the deposited data

How the results depend on the processing

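Of 32 values under alternative settings for 10 results, 23 stayed within the main interval, 9 did not, and 0 reversed. The arm over centre ratio of pooled peaks was 1.12 per Mb of noncoding sequence, against 1.21 per Mb. From each replicate's list alone it was 1.13 to 1.27, and the ratio of IDR peaks, taken as the strongest 131 noncoding V peaks of that list, was 0.556 to 0.629. Without summits within 1000 bp of a small RNA gene, an alternative added after seeing the data, the IDR ratio was 0.551. The IDR share of members was 3.21% with coding summits included. IDR members in both replicate lists were 79.4% with matching within 50 bp. The share near a protein-coding 5′ end was 51.1% within 500 bp and 80.2% within 2000 bp, and that near an arm-family gene 2.29% within 500 bp, against 6.87% within 1000 bp. GACGCAG was in 3.82% within 50 bp of the summit and 17.6% within 200 bp, and GAGAGAG in 13.0% within 50 bp. Each of these shifts follows from the wider or narrower distance, or from the change in which peaks or bases are counted. No paired analysis was possible because there is only 1 group. The ce10 lists were split by the ce11 length of V. Depth is unknown, since the lists hold no read counts, so what it limits cannot be given. No untagged strain sets a background.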
